A study of Caenorhabditis elegans with 9 samples.

Results

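The genes described here are 27 neuropeptide precursor genes of Caenorhabditis elegans that the authors listed as higher in sorted wild type VA motor neurons than in whole second-stage larvae. They were chosen by name from the 2349 listed genes: symbols beginning with flp, nlp or ins and a number, together with pdf-1 and daf-28. In all 30 listed symbols fitted those families, and flp-1, nlp-15 and nlp-38 were left out. Of the other names sought, snet-1 and ntc-1 were not listed.

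Messenger RNA was measured by sequencing in 3 libraries of wild type VA neurons, which are cholinergic motor neurons of the ventral cord, and in 3 libraries of whole worms, all from synchronized L2 larvae. The neurons came from a strain labelled pUnc-4::mCherry; pUnc-4C::GFP, with a red and a green reporter driven by unc-4 constructs, and cells with red signal alone were taken by fluorescence-activated sorting, which per the labels also captures AVF neurons. The whole worms were of the wild type strain N2 and were frozen, not sorted, so strain, handling and cell content differ together between the groups and cannot be told apart. A further 3 libraries came from VA neurons of unc-4 worms with the same reporters; the labels give no allele. In bulk RNA a lower value from fewer cells of a type and from less RNA per cell cannot be told apart.

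Neuropeptides are cut from larger precursor proteins inside dense core vesicles, trimmed, often amidated at the C terminus, and released to act on G protein-coupled receptors of the same or distant cells. Worm precursors fall into the FMRFamide-like family (flp genes), the insulin-like family (ins genes and daf-28) and a mixed family of neuropeptide-like proteins (nlp genes). The PDF peptides are related to arthropod pigment-dispersing factor and act through the receptor PDFR-1. Insulin-like peptides differ from the others in that they act on the receptor tyrosine kinase DAF-2.

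Values are in TPM, a transcript abundance scaled by transcript length, which can be compared between genes. They keep no sequencing depth, so depth is unknown. Means are given ± SD over n = 3 libraries. All 9 genes taken as cholinergic VA markers were listed, among them the motor neuron factor gene unc-3 at 946, 693 and 471 TPM in VA replicates 1, 2 and 3. Of markers of other cells, 0 of 10 for muscle, 0 of 9 for intestine, 0 of 3 for coelomocytes, 0 of 9 for glutamate and amine neurons, 1 of 14 for ciliated neurons, 1 of 8 for hypodermis, 2 of 6 for GABA neurons and 3 of 8 for touch neurons were listed. Only genes higher than in whole worms are listed, so these counts do not measure purity. The share of TPM held by heat shock genes was 5.22%, 32.6% and 1.90% in VA replicates 1, 2 and 3, against 0.110% to 0.310% in whole worms. TPM has a fixed total, so replicate 2 is given with and without this share where a result rests on it.

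All 27 genes were called higher in VA neurons in the authors' deposited table, as were 100% of the listed genes, since the table holds only genes that passed an FDR of 0.05. At an FDR under 0.01 it holds 23 of the 27, beside 82.5% of the listed genes, with flp-5, nlp-37, flp-16 and nlp-35 as the others. That the 27 are higher is therefore a condition of the list and not a result. What the libraries add is the level of each gene, the order among the genes and how far each value rests on single libraries. Mean levels in VA neurons ran from 19.2 to 3569.6 TPM, with 4 genes above 1000 TPM, 12 more above 100 TPM and 11 below. The median was 223 TPM, where all listed genes had a median of 32.7 TPM. Ratios of mean TPM in VA neurons to whole worms ran from 2.16 to 116 with a median of 9.29, beside a median of 5.18 over the 2329 listed genes with signal in whole worms. The authors' deposited fold changes were larger, from 2.87 to 147 with a median of 12.2, beside a median of 6.94 over all listed genes. How they were computed is not given in the sources used here.

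**Figure D1:**
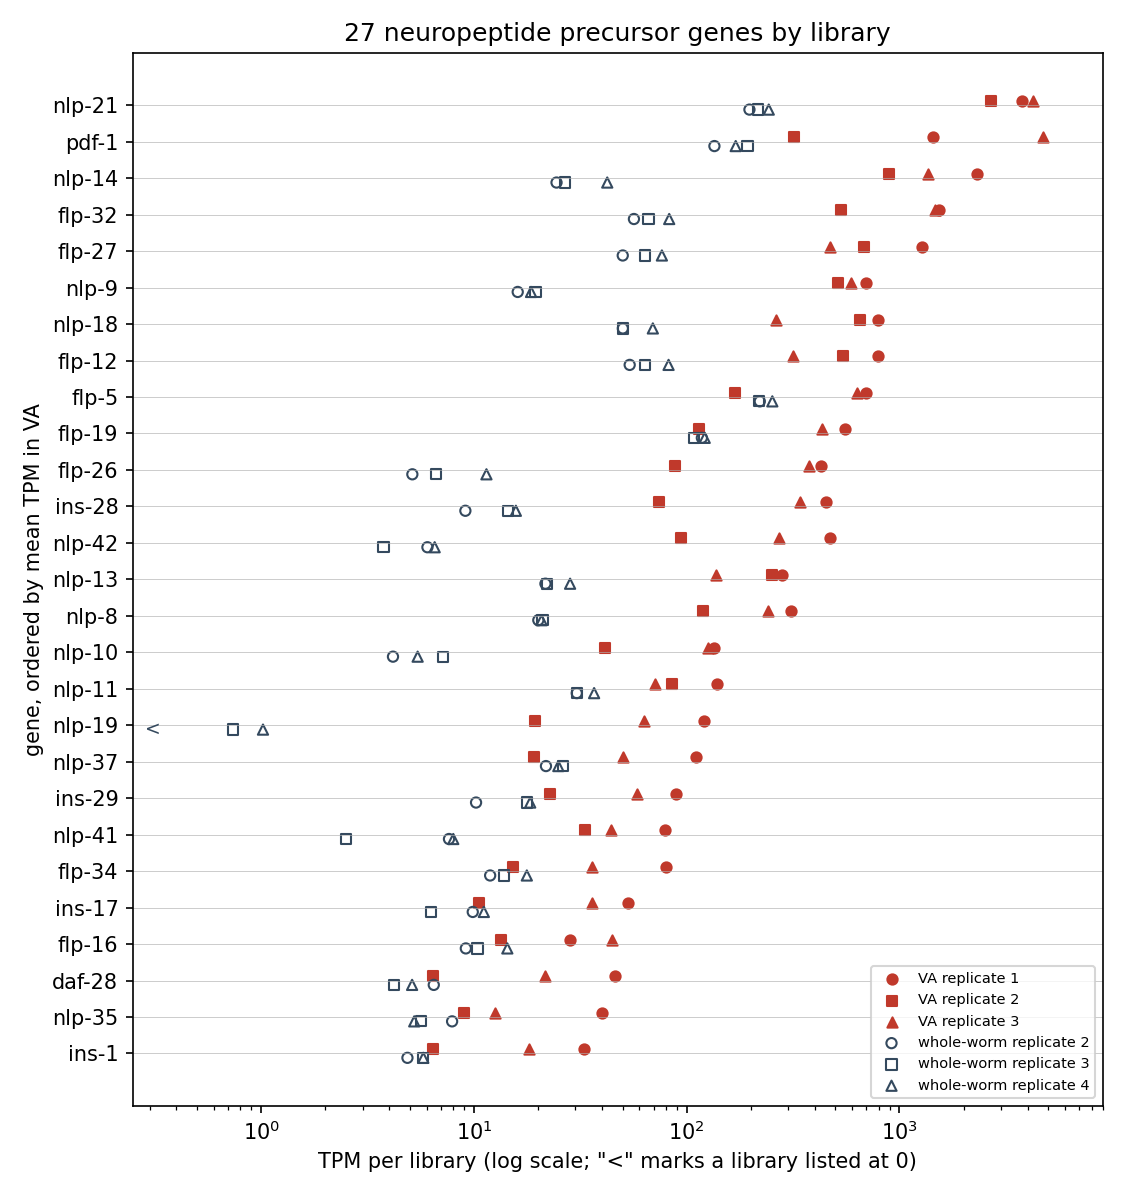
TPM of each of the 27 precursor genes in each library on a log axis, with filled points for the 3 VA libraries and open points for the 3 whole-worm libraries. VA replicate 2 (filled squares) is the lowest VA library for 22 genes, and nlp-19 is listed at 0 in whole-worm replicate 2.

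Together the 27 genes held 1.67%, 0.803% and 1.64% of TPM in VA replicates 1, 2 and 3, a mean of 1.37% ± 0.494 (SD, n = 3), and 0.124% ± 0.0144 (n = 3) in whole worms. Even the lowest VA library exceeded the highest of the worms. Since all 27 were listed as higher in VA neurons, this is a condition of the list and not a result. All listed genes together held a mean of 50.3% of TPM in VA neurons and 4.70% in whole worms. The 27 made up a mean of 2.86% of the listed TPM in VA neurons and 2.66% in whole worms. Among the 27, the 12 nlp genes outside the PDF family gave the largest part in VA neurons, 0.733% ± 0.187, followed by the 8 flp genes with 0.377% ± 0.161. In whole worms the flp genes of the 27 came first, with 0.0579% ± 0.00710 for the flp genes and 0.0426% ± 0.00527 for the nlp genes. The pair of PDF genes held 0.155%, 0.0339% and 0.476% in the VA libraries, nearly all of it from pdf-1. The 5 insulin-like genes held 0.0423% ± 0.0279. A few genes carried much of the sum: nlp-21, pdf-1 and nlp-14 made up 44.9%, 48.8% and 62.7% of it in VA replicates 1, 2 and 3. For scale, flp-1, which was left out, averaged 67544 TPM alone, several times the sum of all 27. H05L03.3 (now nlp-49), listed by its sequence name and so not among the 27, averaged 24105 TPM. The order of families in VA neurons therefore holds only among the 27. With flp-1 counted, the flp genes came first there as well.

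**Figure D2:**
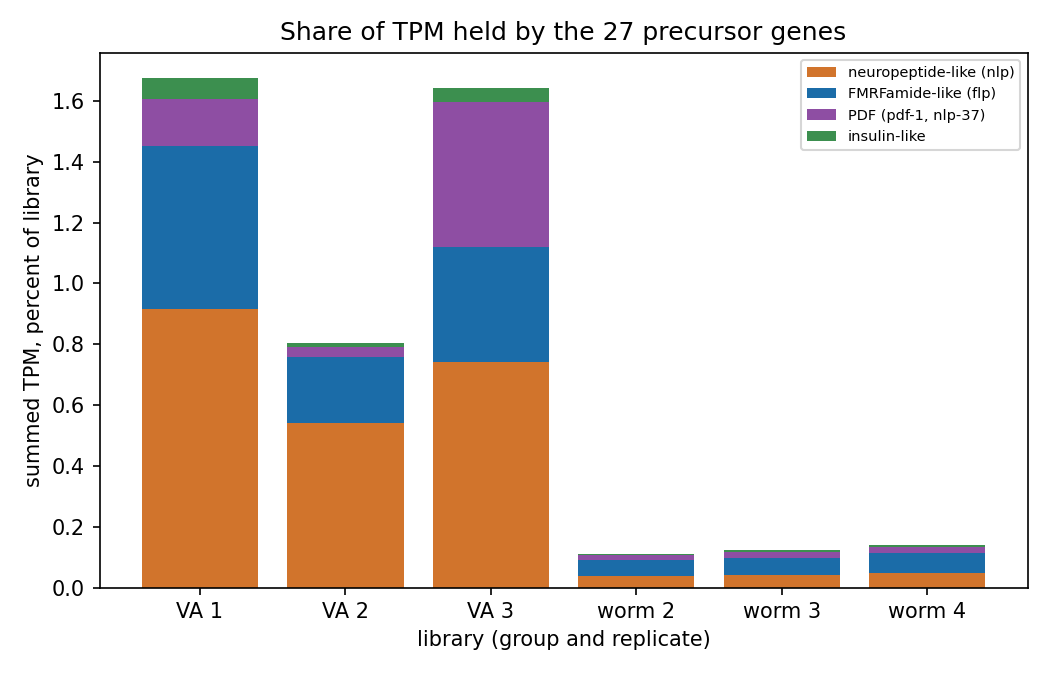
Summed TPM of the 27 genes as a percentage of each library, stacked by family, for VA replicates 1 to 3 and whole-worm replicates 2 to 4. The VA libraries hold between 0.803% and 1.67% and the whole-worm libraries between 0.111% and 0.140%.

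Among the nlp genes, nlp-21 (WBGene00003759, WBcel235 chromosome III, 11388624 to 11393262) was the most abundant of the 27. It read 3771, 2703 and 4235 TPM in VA replicates 1, 2 and 3 and 197, 216 and 243 TPM in whole-worm replicates 2, 3 and 4. The VA libraries lay close together and far above the worms, and the gene ranked first in VA replicates 1 and 2 and second in replicate 3. It was number 15 of 2349 listed genes by mean VA level, at 3569.6 ± 785 against 219 ± 23.1 TPM and a ratio of 16.3. The orcokinin-type precursor gene nlp-14 (chromosome X, 8917423 to 8919423), which has been linked to sleep, read 2311, 891 and 1366 TPM in VA neurons and 24.5, 26.8 and 42.3 TPM in whole worms. It combined a high level with a high ratio, 48.8, number 3 of the 27. On log2(TPM + 1) it differed by 5.50 ± 0.42 (SE; limma, adjusted p = 8.8e-07). Since the genes were listed on these same libraries, limma p-values here and below are no independent evidence of a difference.

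The steadiest of the 27 was nlp-9 (chromosome V, 4219642 to 4222233), with 693, 513 and 593 TPM in VA neurons and 16.07, 19.5 and 18.6 TPM in whole worms. Its VA libraries differed by less, relative to their mean, than those of any other of the 27. The ratio of 33.2 stayed between 30.7 and 35.6 with any library left out. The next nlp gene by level, nlp-18 (chromosome II, 11027972 to 11030397), read 794, 649.5 and 264 TPM in VA neurons against 50.1, 50.4 and 69.4 TPM in whole worms. Here replicate 3, not replicate 2, was the low VA library. On chromosome V, nlp-13 lies 14184 bases from nlp-9 with no protein-coding gene between them, and read 281, 252 and 137 TPM in VA neurons, below nlp-9 in each library, against 21.7, 22.1 and 28.3 TPM in whole worms.

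A pair of less abundant nlp genes had the highest ratios. For nlp-19 (chromosome X, 10958727 to 10959253) VA neurons read 121, 19.3 and 63.1 TPM, and whole worms 0, 0.736 and 1.02 TPM. The whole-worm values were near 0, and the ratio of 116 moved to 70.4 without VA replicate 1 and to 184 without whole-worm replicate 4. Among listed genes with a ratio it was number 24 of 2329. For nlp-42 (chromosome V, 18903772 to 18906252), whose identifier now carries the symbol mihp-2, VA neurons read 473, 94.5 and 270.2 TPM and whole worms 6.05, 3.76 and 6.54 TPM. The ratio was 51.2, and 33.5 without VA replicate 1. The VA libraries spanned 6.25-fold for nlp-19 and 4.999-fold for nlp-42, yet none reached the worm values.

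The remaining nlp genes were intermediate or low. The gene nlp-8, which acts in stress-induced sleep through the ALA neuron, read 308, 119.5 and 241 TPM in VA neurons and 20.1, 21.02 and 20.8 TPM in whole worms. The worm libraries were nearly equal, and the ratio was 10.8. For nlp-10 VA neurons read 134, 41.3 and 127 TPM against 4.17, 7.14 and 5.44 TPM, a ratio of 18.01. Replicate 2 was again the low VA library. For nlp-41 the values were 79.3, 33.4 and 44.1 TPM against 7.64, 2.50 and 8.002 TPM, and for nlp-11 139, 85.7 and 70.8 TPM against 30.4, 30.6 and 36.7 TPM. Neither overlapped, and the ratios of nlp-13, nlp-41 and nlp-11 were 9.29, 8.64 and 3.02. The lowest of the nlp genes, nlp-35, read 40.1, 9.03 and 12.62 TPM against 7.90, 5.66 and 5.24 TPM, with replicate 2 only just above the highest worm library. Its ratio of 3.28 fell to 1.73 without VA replicate 1.

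The FMRFamide-like genes split into those far above whole worms and those close to them. Highest was flp-32 (chromosome X, 15433787 to 15434972), with 1528, 533 and 1462 TPM in VA neurons and 56.5, 66.2 and 82.8 TPM in whole worms, a ratio of 17.1. Replicates 1 and 3 nearly coincided and replicate 2 lay well below them. For flp-27 (chromosome II, 5681003 to 5682667) VA neurons read 1271, 682 and 474 TPM and whole worms 50.1, 63.8 and 76.5 TPM. For flp-12 (chromosome X, 4591281 to 4592350) the values were 790.1, 541 and 318 TPM and 53.98, 63.8 and 82.2 TPM. In both genes replicate 3 was the lowest VA library, and the ratios were 12.8 and 8.25.

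With 429, 88.1 and 377 TPM in VA neurons and 5.14, 6.65 and 11.5 TPM in whole worms, flp-26 (chromosome X, 7029136 to 7029640) had the largest ratio of the flp genes, 38.5. No VA library came near the worm values, although replicate 2 was far below the other VA libraries. On log2(TPM + 1) flp-26 differed by 4.87 ± 0.55 (SE; limma, adjusted p = 1.3e-05, on the libraries by which it was listed).

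At the other end, flp-5 (chromosome X, 8528250 to 8531076) had the smallest ratio of the 27, 2.16, although its level was high. VA neurons read 695, 169 and 633 TPM and whole worms 221, 219 and 253 TPM. Replicate 2 lay below all worm libraries, and limma's test did not pass (log2 difference 0.87 ± 0.51, SE, adjusted p = 0.12), while the authors' deposited table gives an FDR of 0.022. With heat shock genes, flp-1 and nlp-49 set aside and the rest rescaled, limma's test passed (1.24 ± 0.44, SE, adjusted p = 0.021). For flp-19 (chromosome X, 10604686 to 10605831) the values were 555, 115 and 432 TPM against 118, 108.5 and 121.6 TPM, again with replicate 2 inside the worm range. The gene encoding the neuropeptide Y-like peptide FLP-34 read 80.2, 15.3 and 35.8 TPM against 11.9, 13.8 and 17.7 TPM, and flp-16 read 28.2, 13.4 and 44.5 TPM against 9.17, 10.4 and 14.4 TPM. In both, replicate 2 overlapped the worm libraries, and the ratios were 3.02 and 2.54. That of flp-34 was 1.76 without VA replicate 1.

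The PDF gene pdf-1 (chromosome III, 6909590 to 6912481), whose peptides promote roaming locomotion, was second by mean level and the least even of the 27. It read 1437, 319.8 and 4713 TPM in VA replicates 1, 2 and 3 and 135, 193 and 170.0 TPM in whole worms. The VA libraries spanned 14.7-fold, yet each was above every worm library. The ratio of 12.98 dropped to 5.29 without VA replicate 3. On log2(TPM + 1) the difference was 2.97 ± 0.75 (SE; limma, adjusted p = 0.0033, on the libraries by which it was listed). Replicate 3 above 1 above 2 is also the order of flp-1 (62369, 21477 and 118785 TPM), and of nlp-21 and flp-16 alone among the other members.

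The second PDF gene, listed as nlp-37 and now carrying the symbol pdf-2, read 110.2, 19.1 and 50.5 TPM in VA neurons and 21.8, 26.2 and 24.9 TPM in whole worms. Replicate 2 was below all worm libraries. Its ratio of 2.47 was 1.43 without VA replicate 1, and limma's test did not pass (log2 difference 0.95 ± 0.51, SE, adjusted p = 0.093). After the same rescaling as for flp-5 limma's test passed (1.31 ± 0.48, SE, adjusted p = 0.024). The authors' deposited table gives an FDR of 0.030. The PDF receptor gene pdfr-1 was listed as well, with 57.8, 49.8 and 20.4 TPM in VA neurons and 9.04, 7.23 and 7.48 TPM in whole worms.

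Of the insulin-like genes, ins-28 stood apart. It read 450.3, 74.5 and 342 TPM in VA neurons and 9.12, 14.4 and 15.8 TPM in whole worms, a ratio of 22.1. Its neighbour ins-29, 5169 bases away on chromosome I, read 88.8, 22.8 and 58.5 TPM and 10.2, 17.8 and 18.4 TPM, a ratio of 3.66. The neighbours thus had like whole-worm levels and unlike VA levels, with ins-28 higher in each VA library. The other insulin-like genes were among the least abundant of the list. The gene daf-28, whose product favours reproductive growth over dauer arrest, read 46.3, 6.43 and 21.6 TPM against 6.48, 4.22 and 5.12 TPM. For ins-17 the values were 52.9, 10.5 and 35.9 TPM against 9.88, 6.28 and 11.1 TPM. In daf-28 replicate 2 fell within the worm range, and in ins-17 it lay just under the highest worm library. The gene ins-1, whose product antagonises DAF-2, read 32.97, 6.44 and 18.1 TPM against 4.87, 5.75 and 5.79 TPM, separated by a narrow margin. Without VA replicate 1 the ratios of 4.70 and 3.50 for daf-28 and ins-1 were 2.66 and 2.24. The receptor gene daf-2 was listed at 14.7, 11.7 and 5.98 TPM in VA neurons and 3.46, 6.03 and 3.55 TPM in whole worms, which overlapped.

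**Figure D3:**
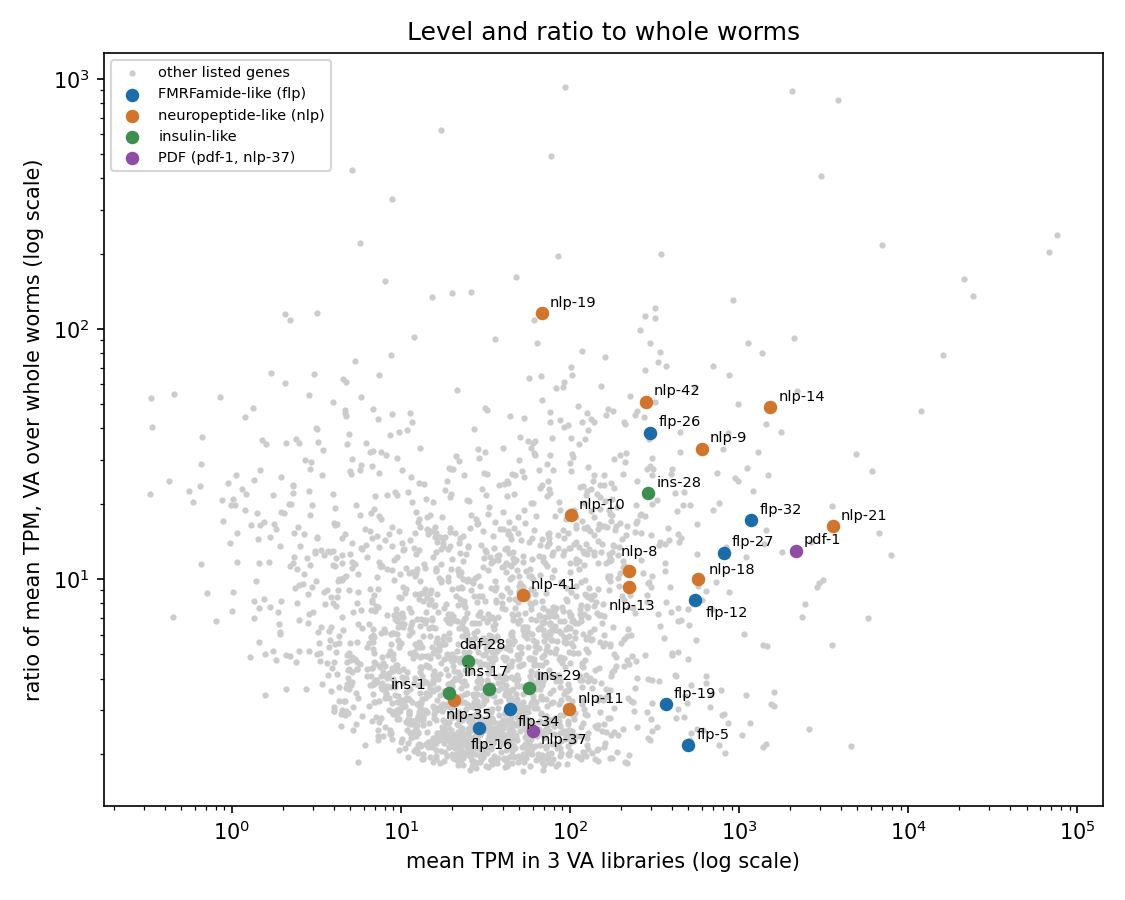
Mean TPM in VA neurons (horizontal, log axis) against the ratio of mean TPM in VA neurons to whole worms (vertical, log axis), with 1 point per gene, the 27 genes coloured by family and other listed genes in grey. nlp-14 combines a mean of 1523 TPM with a ratio of 48.8, nlp-19 has the highest ratio, 115.6, and flp-5 the lowest, 2.16.

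Level and ratio did not give the same order. Of the 12 genes with the highest mean level, 8 were also among the 12 with the highest ratio. The exceptions were nlp-18, flp-12, flp-5 and flp-19, with whole-worm means of 56.6, 66.7, 231 and 116 TPM. In their place by ratio stood nlp-19, nlp-42, nlp-10 and nlp-8. Whole-worm level alone does not mark the exceptions. The genes nlp-21, pdf-1, flp-32 and flp-27 averaged 219, 166, 68.5 and 63.4 TPM in whole worms and were in both sets of 12. The order by level is only coarse: in all 26 pairs of genes that follow each other, the VA libraries of the 2 genes overlapped. Over the libraries nlp-18 held places between 4 and 13 and pdf-1 between 1 and 8, while ins-1 was number 26 in all 3.

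**Figure D4:**
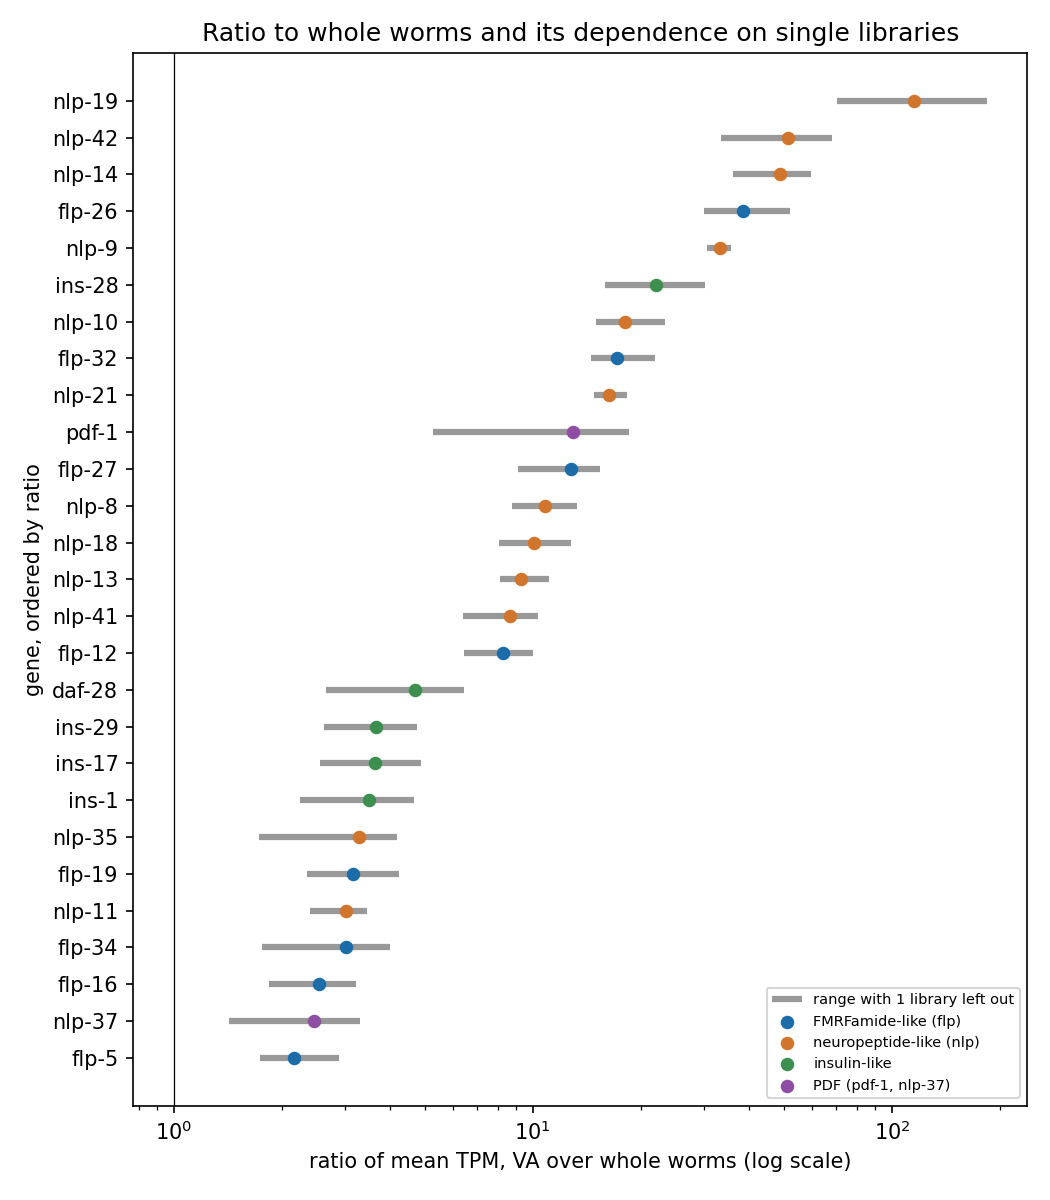
Ratio of mean TPM in VA neurons to whole worms for each gene (points, coloured by family, log axis), with grey bars for the range of the ratio when any 1 of the 6 libraries is left out. The bar of nlp-9 runs from 30.7 to 35.6 and that of pdf-1 from 5.29 to 18.5.

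The VA libraries were unequal in a way shared by most of the genes. VA replicate 2 was the lowest VA library in 22 of 27 genes (81.5%), where it was the lowest in 41.6% of all listed genes, and replicate 3 was the lowest in the other 5. Set against the mean of replicates 1 and 3, replicate 2 stood at a median of 0.317 over the 27 genes, beside 0.865 over all listed genes. The 5 genes lowest in replicate 3 were flp-27, nlp-18, flp-12, nlp-13 and nlp-11. In these, replicate 2 stood at 0.781 to 1.23 of the mean of the others. It was under 0.35 in 15 genes, among them pdf-1 (0.104), ins-28 (0.188), daf-28 (0.189), nlp-19 (0.210) and flp-26 (0.219).

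Other genes give a measure of this difference. The cholinergic VA markers stood at a median of 0.776 in replicate 2, with unc-4 at 0.767. The 8 listed of 11 peptide processing enzyme genes had a median of 0.461, and the 19 listed of 23 genes of dense core vesicle making and release 1.18. The 22 listed of 46 peptide receptor genes had 0.428. Heat shock genes were high in that same library. With heat shock genes, flp-1 and nlp-49 set aside and the rest rescaled to a fixed total, replicate 2 still stood at a median of 0.416 over the 27 genes and was the lowest in 21. Over the 2336 listed genes that were not set aside, the same rescaling gave a median of 1.14 and replicate 2 was the lowest in 26.5%.

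Listed markers of other cells also differed between these libraries. The hypodermis gene grl-8, the only listed one of 8, read 485, 87.4 and 379.7 TPM in VA replicates 1, 2 and 3, so replicate 2 stood at 0.202 of the mean of the others. Its levels in whole worms were 2.73, 2.996 and 2.16 TPM. The 3 listed touch neuron markers, mec-12, mec-7 and mec-2, had a median of 0.507 and a summed share of 1.05%, 0.458% and 0.750% of TPM, against 0.0507% to 0.0728% in whole worms. The touch neuron channel genes mec-4 and mec-10 were not listed. All 3 genes taken as AVF-linked were listed: unc-42 stood at 0.297 in replicate 2 (146, 44.7 and 155 TPM), unc-4 at 0.767 and the GABA transporter gene snf-11 at 0.751. Of these, unc-4 is also the gene of the sort, and snf-11 is in the GABA list as well. The other listed GABA marker, unc-55, went the other way with 17.003, 33.5 and 0.0256 TPM, and the GABA synthesis and vesicle genes unc-25 and unc-47 were not listed. The only listed ciliated neuron gene, daf-19, stood at 1.07. The part of these cells in the low replicate 2 values was not tested.

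**Figure D5:**
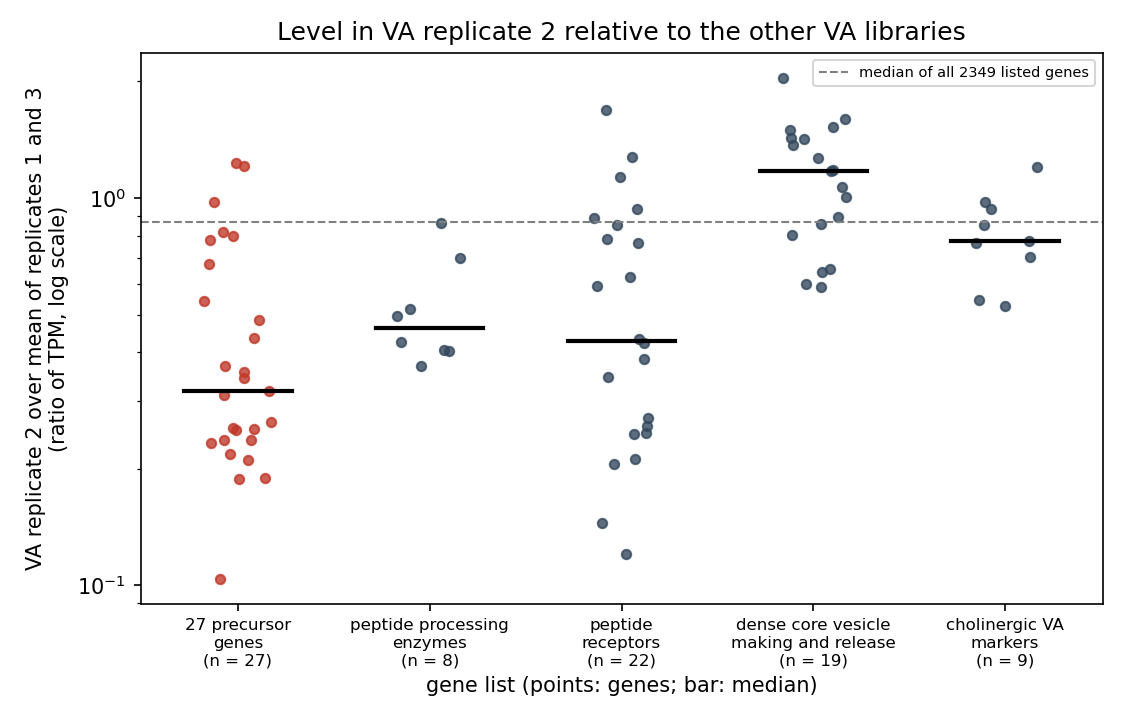
TPM in VA replicate 2 over the mean of VA replicates 1 and 3 for each gene (points, log axis) in the 27 precursor genes and in 4 other gene lists, with bars for medians and a dashed line for the median of all listed genes, 0.865. The precursor genes have a median of 0.317 and the genes of dense core vesicle making and release 1.18.

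Overlap with whole worms lay in this library. The lowest VA library exceeded the highest whole-worm library in 20 of 27 genes, where 91.9% of all listed genes were separated in this way. The 7 that overlapped were flp-5, flp-19, flp-34, flp-16, nlp-37, ins-17 and daf-28, each through VA replicate 2. Without that library all 27 were separated, beside 94.1% of listed genes, and after the rescaling all 27, beside 95.5%. Without whole-worm replicate 4, 23 of the 27 were separated, beside 93.1%. Limma's test on log2(TPM + 1), adjusted by Benjamini-Hochberg over 2328 genes, passed 25 of 27 genes beside 95.1% of all genes tested, with flp-5 and nlp-37 as the exceptions. After the rescaling it passed all 27, beside 97.3% of genes tested. Since the genes were listed on these same libraries, these counts show how calls rest on libraries and are no independent evidence. Without VA replicate 1, 18 of the 27 passed, beside 84.6% of genes tested, with flp-19, flp-34, ins-17, flp-16, daf-28, nlp-35 and ins-1 lost. Without VA replicate 3 it passed 21, beside 97.1%, and without whole-worm replicate 2 21, beside 87.5%. Without whole-worm replicate 3 it passed 20, beside 81.6%. Lost in all 4 of these cases were flp-19, flp-34 and flp-16.

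Genes that process, release and receive peptides were listed in part. The share of all annotated genes that were listed was not computed, so the counts have no background beside them. Of 11 processing enzyme genes 8 were listed, with a median ratio of 8.92, beside 5.18 over all listed genes with a ratio. The prohormone convertase gene egl-3 read 1845, 737 and 1635 TPM in VA neurons against 93.9, 109 and 102 TPM in whole worms. The gene of its chaperone, sbt-1, averaged 7911 ± 3542 against 632 ± 32.2 TPM, and the carboxypeptidase gene egl-21 3148 ± 1397 against 318 ± 41.1 TPM (SD, n = 3 each). Of the amidation enzymes, pghm-1 averaged 2461 ± 1145 against 309.8 ± 36.6 TPM, pgal-1 5786 ± 2872 against 829 ± 44.9 TPM and pamn-1 47.4 ± 20.3 against 19.9 ± 1.51 TPM. The genes aex-5, bli-4 and cpd-1 were not listed. Of the dense core vesicle list 19 of 23 were listed with a median ratio of 5.80, near that of all listed genes. Examples are the vesicle membrane gene ida-1 (874 ± 405 against 98.6 ± 13.8 TPM) and the release factor gene unc-31 (12.3 ± 7.36 against 0.663 ± 0.0466 TPM). Of 46 peptide receptor genes 22 were listed with a median ratio of 9.68. Among them npr-11, which encodes a receptor of FLP-34, averaged 5.41 ± 3.23 against 0.274 ± 0.0867 TPM, and npr-5 124 ± 30.7 against 8.97 ± 2.40 TPM.

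The 27 genes are spread over all 6 chromosomes. X holds 8 of them (29.6%, beside 20.97% of listed genes with a position), II and V hold 5 each, III holds 4, I holds 3 and IV holds 2. Except for the pairs nlp-9 with nlp-13 and ins-28 with ins-29, the closest were flp-19 and nlp-19, 352895 bases apart. Annotated genes on the opposite strand overlap 7 of the 27. The protein-coding ones are subs-4 at nlp-21, C25H3.11 at flp-27, abl-1 at flp-19, mog-4 at nlp-41, romo-1 at flp-16 and C33A12.19 at nlp-35, and the noncoding R03A10.8 lies at flp-32. Overlap was taken from whole gene spans, and overlap of exons was not examined. Whether counting used strand is not given in the sources used here. Some reads of these pairs may therefore not be told apart, and their values are uncertain.

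Many family members are not in the list. By identifier, 9 of 31 annotated flp genes, 22 of 74 nlp genes, 5 of 39 insulin-like genes and both PDF genes were listed. As the share of all annotated genes that were listed was not computed, the family counts have no background beside them. These counts include flp-1, nlp-15, nlp-38 and 8 genes that the table gives by sequence names. Highest of these 8 was H05L03.3, now nlp-49, at 24105 ± 12372 against 178 ± 37.7 TPM, above each of the 27. Next came F41G3.1, now nlp-50, at 1433 ± 1076 against 90.8 ± 16.8 TPM and T04C12.3, now nlp-80, at 635 ± 419 against 70.7 ± 2.53 TPM. A gene that is not listed need not be low in VA neurons. The table of genes higher in unc-4 VA neurons gives wild type VA levels for 12 family genes that are not listed against whole worms, from 1.33 to 384 TPM with a median of 42.6 TPM. The highest, flp-9, read 489, 204 and 460.2 TPM in wild type VA replicates 1, 2 and 3, a mean above that of 18 of the 27 genes.

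That table of 214 genes, of which 100% passed the authors' FDR, holds 0 of the 27. It gives no unc-4 value for them, so no level, fold or test in the mutant is reported. Wild type levels in both tables were equal to within 1e-09 TPM for the 13 genes they share.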

How the data were processed

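RNA sequencing values of 9 libraries in 3 groups, mapped by their titles, were read from 2 deposited tables. Per the file headers, the authors deposited TPM values per library and group mean TPM, a fold change (read as a linear ratio) and an FDR p-value for each comparison. Per the submitters' processing notes, reads were handled on WBcel235. The aligner, counting settings and test are not given in the sources used here. Both tables hold only genes with a fold above 1 and an FDR under 0.05. Means, SDs and ratios were computed from TPM in Python 3.11.15. The log2(TPM + 1) values of listed genes that averaged 1 TPM or more in 1 of the groups were fitted in R 4.3.3 (limma 3.58.1, trend on); p-values were adjusted by Benjamini-Hochberg over all of these, and the fit was tested on simulated data. This scale understates differences of low genes. Coordinates come from the Ensembl release 115 annotation. Separate cultures are not named for the replicates, so p-values reflect only the spread among these libraries, possibly technical.

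Members and gene lists were chosen with earlier results of these data known. The rule for named genes was that every member is named, with every library's value for the 12 highest by level and by ratio, for those that overlap between groups and for those whose ratio moves by over 1.5 times without 1 library. Alternatives were other pseudocounts, filters and scalings, no trend, a replicate block, a stricter FDR and each library left out. Unlisted genes were not analysed here.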

Additional observations from a re-analysis of the deposited data

How the results depend on the processing

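Depth is unknown, so no counting error can be given for low values such as those of nlp-19 in whole worms. The count of genes past limma's test, 25 of 27, lay between 18 and 27 with 1 library left out (81.6% to 97.1% of genes tested) and between 20 and 27 under 8 other settings (68.6% to 97.3%), namely pseudocounts of 0.1 and 5 TPM, no filter, a minimum of 5 TPM, no trend, the replicate block and both rescalings. The median ratio of 9.29 lay between 8.07 and 10.3 with 1 library left out and between 8.48 and 12.3 otherwise, and the share of TPM, 1.37%, between 1.22% and 1.66% and between 1.37% and 1.73%. The separated genes, 20, ranged from 20 to 27 (92.2% to 97.0% of listed genes), and the stricter FDR left 23 of 27. No gene's log2 difference changed sign in any of these settings. All 27 were listed as higher in VA neurons on these same libraries, so the unchanged sign is no independent evidence. Of 378 gene and setting pairs 348 kept their side of the threshold, 26 lost the call and 4 gained it. Rescaling by the median ratio and its use for shares, ratios and separation were chosen partly after seeing the data. With the replicate number as a block 20 of the 27 passed, beside 68.6% of genes tested, with flp-19, flp-34, daf-28, nlp-35 and ins-1 lost. Only the numbers 2 and 3 are shared by both groups, so this fit drew the group difference from those replicates alone. VA replicate 1 and whole-worm replicate 4 added nothing to it. Deviations of same-numbered libraries were hardly correlated (r = 0.068 and -0.012 over listed genes). Those of unlike numbers gave r from -0.088 to 0.076, so these values cannot decide whether the numbers pair the samples. Of the unc-4 table no alternative could give a value, because it holds none of the 27 genes.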
